A study of Mus musculus with 37 samples.

Results

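Secretory proteins enter the endoplasmic reticulum (ER), fold there and leave it in coated vesicles, and the 40 genes described here encode parts of that route: 16 chaperones and folding enzymes, 10 genes of the translocon and the signal peptidase, 6 genes of vesicle coats and KDEL receptors, and 8 genes of the ER stress response and of ER-associated degradation. Each gene was read from the probe set annotated to that symbol alone, and from the one with the highest mean over the 37 arrays where there were several. Of the 40 genes, 38 were measured in this way, all 38 passed the filter on dim genes, and they belong to 16865 genes tested among 19937 genes with such a probe set. No value is given for Sec61g, a translocon subunit whose probe sets also name other genes, or for Kdelr2, a KDEL receptor; Ero1l is listed as Ero1a.

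The arrays measured total RNA of whole mammary glands of FVB mice that lacked the tyrosine phosphatase PTP1B, encoded by Ptpn1, in the whole body (PTP1B-/-, here KO) or carried it (PTP1B+/+, here WT). The knockout allele had been backcrossed to FVB for at least 7 generations. Females were mated at 12 weeks of age, and no mouse received a treatment. Glands were taken from nulliparous females in oestrus, dated by a vaginal plug after a night with a male (P0), or on day 3, 7, 10 or 15 of pregnancy (P3 to P15). There were 4, 3, 5, 3 and 4 KO arrays and 4, 3, 4, 3 and 4 WT arrays at P0, P3, P7, P10 and P15. The labels do not say that replicates are separate animals, so p-values measure the spread between these arrays, which may be technical.

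A new secretory protein is threaded through the Sec61 channel with the help of the translocon-associated proteins (Ssr1 to Ssr4), and the signal peptidase removes its signal peptide. Hspa5 (BiP), calnexin, calreticulin and protein disulfide isomerases then fold it, COPII coats carry it toward the Golgi, and COPI coats with KDEL receptors bring escaped ER residents back. Misfolded protein in the ER lumen activates the sensors IRE1 (Ern1), ATF6 and PERK, which raise chaperones and degradation factors, and PERK also acts through ATF4, CHOP (Ddit3) and Nupr1. In pregnancy the mammary alveolar epithelium gains the ability to make and export milk proteins, and its rough ER expands.

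Promoter sequences bear on these groups because the stress response acts through short DNA elements. RefSeq promoter windows of the mouse build GRCm38.p6, 300 bases from 250 before to 50 after the start of a gene, were at hand for 31 of the 38 genes, and motifs were searched on both strands. The ER stress element (ERSE: CCAAT, 9 bases, CCACG) is the classical response element of ATF6 and its partner NF-Y. It was found in 7 genes (22.6% of 31), against 0.137% of all 27025 genes with windows, a match in any window of a gene being counted. All 7 belong to the 14 chaperones and folding enzymes with a window. Each match is given below on the strand that reads CCAAT first, with 5 flanking bases on each side and the fixed letters in capitals. Hsp90b1 holds 2 matches.
Hspa5 (chr2:34772020-34772048, plus strand): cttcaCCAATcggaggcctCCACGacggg
Hsp90b1 (chr10:86705633-86705661, minus strand): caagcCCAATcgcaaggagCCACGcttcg
Hsp90b1 (chr10:86705528-86705556, plus strand): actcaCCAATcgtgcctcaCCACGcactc
Calr (chr8:84847070-84847098, plus strand): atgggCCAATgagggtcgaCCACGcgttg
Canx (chr11:50325795-50325823, minus strand): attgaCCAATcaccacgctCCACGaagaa
Pdia6 (chr12:17266486-17266514, plus strand): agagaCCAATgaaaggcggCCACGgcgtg
Dnajc3 (chr14:118937822-118937850, plus strand): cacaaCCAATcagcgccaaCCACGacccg
Creld2 (chr15:88819515-88819543, minus strand): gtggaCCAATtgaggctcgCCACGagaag

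The related ERSE-II (ATTGG, 1 base, CCACG) was found in 2 genes, the chaperone Dnajb11 and the degradation factor Herpud1, against 0.0444% of all genes with windows. The letters TGACGTGG of the unfolded protein response element (UPRE), which XBP1 and ATF6 can bind, were found in 3 of the 5 coat and KDEL receptor genes and in no other of the 31, against 0.714% of all genes. The letters TGATGCAAT, an element that ATF4 with a C/EBP partner can bind, were found in Nupr1 alone, against 0.222% of all genes. The cyclic AMP response element TGACGTCA was in none of the 31 genes, against 2.03% of all genes. UPRE and the cyclic AMP element share the letters TGACGT, and ERSE contains a CCAAT box (67.7% of the 31, against 41.1% of all genes) and the letters CCACG (83.9%, against 35.5%). Capitals mark the motif, without the spacer in ERSE-II.
Dnajb11, ERSE-II (chr16:22857847-22857867, plus strand): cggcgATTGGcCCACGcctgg
Herpud1, ERSE-II (chr8:94386372-94386392, plus strand): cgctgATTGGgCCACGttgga
Sec24d, UPRE (chr3:123267465-123267482, plus strand): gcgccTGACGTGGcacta
Copb1, UPRE (chr7:114254696-114254713, plus strand): ttggcTGACGTGGaaggg
Kdelr3, UPRE (chr15:79516373-79516390, minus strand): cgcggTGACGTGGcgggg
Nupr1, ATF4 element (chr7:126625568-126625586, plus strand): ctgtcTGATGCAATctggc

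The windows of Hspa5 and Nupr1 are shown whole, because Hspa5 is the standard ERSE gene and Nupr1 is the gene that differed most between genotypes below. Capitals mark the whole ERSE of Hspa5, spacer included, and the ATF4 element of Nupr1, which reads as its reverse complement on the strand of the gene. Of the 10 genes with a window that had risen at P15 against P0 none holds an ERSE, of the 8 that had fallen 2 do, and of the 13 not called 5 do. Only Ero1a and P4hb among these 10 belong to the chaperones and folding enzymes, the role that holds every ERSE match. The genes without a window include Sec11c, Ssr2, Sec61a1, Creb3l1 and Manf, which had risen, and Hyou1, which had fallen. A match is a description of letters and not of a bound site.
Hspa5 (chr2:34771840-34772139, plus strand): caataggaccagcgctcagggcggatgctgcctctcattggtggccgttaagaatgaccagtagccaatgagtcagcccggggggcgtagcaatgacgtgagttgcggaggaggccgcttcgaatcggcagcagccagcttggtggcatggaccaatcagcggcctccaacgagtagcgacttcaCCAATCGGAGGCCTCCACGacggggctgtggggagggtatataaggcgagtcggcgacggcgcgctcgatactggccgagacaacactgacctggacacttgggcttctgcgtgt
Nupr1 (chr7:126625421-126625720, minus strand): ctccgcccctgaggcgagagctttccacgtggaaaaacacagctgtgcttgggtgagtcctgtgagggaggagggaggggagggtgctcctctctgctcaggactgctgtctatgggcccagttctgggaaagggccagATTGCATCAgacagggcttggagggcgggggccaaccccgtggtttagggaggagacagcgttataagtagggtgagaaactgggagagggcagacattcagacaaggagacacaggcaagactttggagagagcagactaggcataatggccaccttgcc

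Values below are log2 intensities, differences are on the log2 scale with the standard error of the fit, and a gene is said to have risen or fallen where limma's adjusted p was under 0.05. Some arrays stood apart, and none was dropped from the fit. Ptpn1 lay between 5.36 and 6.49 in 18 KO arrays, against 7.90 to 9.06 in the 18 WT arrays, but the array labelled KO P15 replicate 3 had 8.68, inside the WT range. Skeletal muscle markers were raised in 3 arrays (score of 4.72 in WT P0 replicate 4, 5.03 in KO P3 replicate 1 and 2.29 in KO P7 replicate 3), and B and T lymphocyte markers in 3 others (1.11 in WT P7 replicate 1, 3.90 and 3.83 in KO P10 replicates 2 and 3). These 6 and the array labelled KO P15 replicate 3 are the 7 arrays in doubt named below. A score is the mean, over a list, of log2 values after each gene is centred on its average. WT P0 replicate 2 had a chaperone score of 0.38, against -0.26 to 0.03 in the other WT P0 arrays. In whole gland, fewer cells of a type and less RNA per cell cannot be told apart.

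The ER genes did not move as a block through pregnancy: most calls were falls up to P10, and most of the rises came between P10 and P15. All stages are set against the same P0 arrays, as the unweighted mean of the KO and WT differences. At P3, 4 of the 38 genes had risen and 15 had fallen, where 15.7% of all genes rose and 14.5% fell. At P7, 1 had risen and 13 had fallen, against 18.5% and 18.6% of all genes. At P10, 4 had risen and 11 had fallen, against 19.9% and 22.0% of all genes. At P15, 15 had risen and 9 had fallen, against 25.4% and 31.0% of all genes, with a median difference of 0.07 for the 38 genes and -0.03 for all genes.

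The steps between neighbouring stages show where the change lay. From P3 to P7, 3 of the 38 rose and 3 fell, where 27.8% of all genes were called, and from P7 to P10, 3 rose and 1 fell, where 17.7% were called. At P15 against P10, 20 of the 38 rose and 2 fell, against 23.7% and 26.2% of all genes, and the median difference was 0.21 for the 38 genes and 0.01 for all genes. The median of the tested genes on an array was lower at P15 than at P10, and centring the arrays on it moved each P15 against P10 difference up by 0.14, which gave 27 rises and 2 falls. The P10 arrays of this step include KO P10 replicates 2 and 3, with raised lymphocyte markers. With lymphocyte and muscle scores as covariates, Dnajb11, Manf, Sec61b and Atf4 lost their calls at P15 against P10. The highest of the 10 group means was at P15 for 20 genes (KO P15 for 11, WT P15 for 9) and at P0 for 14 genes (KO P0 for 12, WT P0 for 2).

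**Figure D1:**
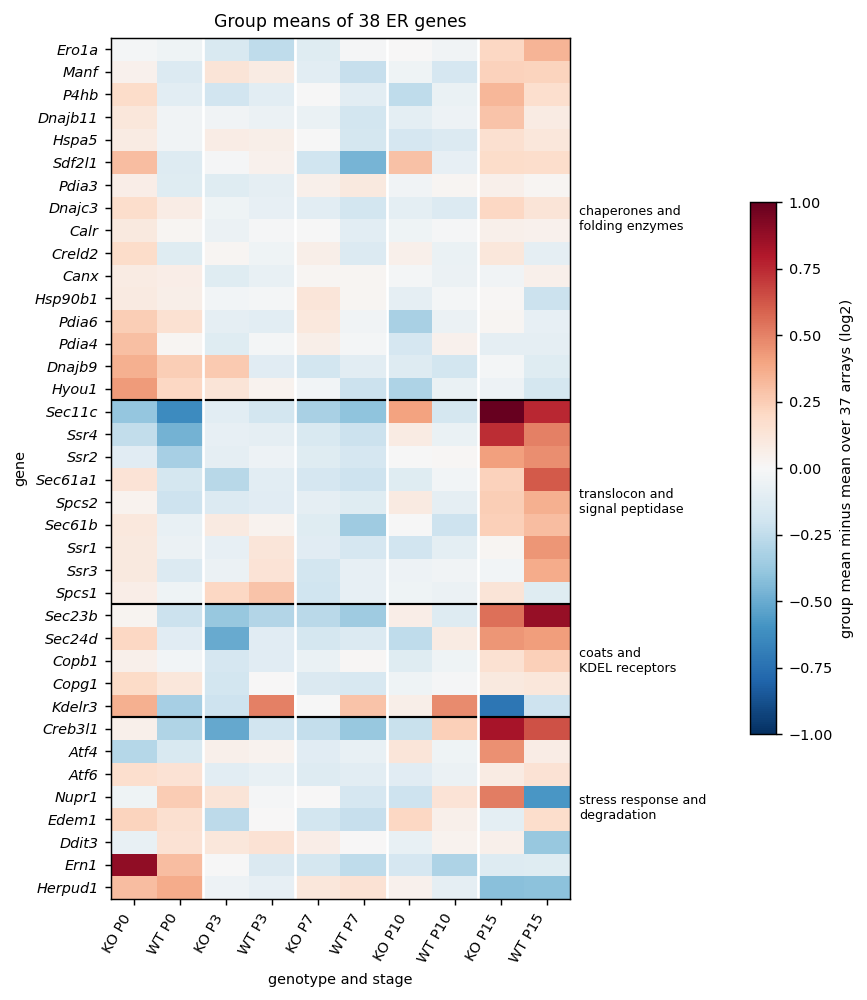
Mean of each of the 10 groups minus the gene's mean over all 37 arrays, as a log2 difference in colour, for the 38 genes (rows, by role and by their P15 against P0 difference) and the groups by stage (columns, KO left of WT). The translocon genes Sec11c and Ssr4 and the coat gene Sec23b are highest at P15, while Hyou1, Dnajb9, Ern1 and Herpud1 are highest at P0; values past the ends of the scale have its end colours.

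The chaperones and folding enzymes, the largest group, differed by -0.43 to 0.30 at P15 against P0, with a median of 0.02. Of the 16, P4hb, Manf and Ero1a had risen and Hsp90b1, Pdia4, Pdia6, Dnajb9 and Hyou1 had fallen, near the shares of all genes (25.4% and 31.0%). At earlier stages no chaperone had risen against P0, where 15.7%, 18.5% and 19.9% of all genes rose at P3, P7 and P10. The falls were 6 at P3, 4 at P7 and 7 at P10, against 14.5%, 18.6% and 22.0% of all genes. At P15 against P10, 6 rose and none fell, where 23.7% of all genes rose and 26.2% fell. The 6 were Hspa5 (0.29 ± 0.08), P4hb (0.41 ± 0.07), Dnajb11 (0.26 ± 0.09), Dnajc3 (0.29 ± 0.07), Manf (0.33 ± 0.11) and Ero1a (0.29 ± 0.05). The call of Dnajb11 was lost with covariates, in 3 fits without 1 array and when the arrays in doubt were left out (adjusted p = 0.186), and that of Manf with covariates (adjusted p = 0.0611). The fold changes were small throughout. Hspa5, the main Hsp70 of the ER, averaged 11.96 ± 0.19 in KO and 11.91 ± 0.16 in WT at P15, against 11.88 ± 0.14 in KO and 11.76 ± 0.31 in WT at P0 (SD, n = 4 each). Its P15 and P0 values overlap, and the difference of 0.11 ± 0.07 did not pass the test (adjusted p = 0.186).

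The largest falls among the chaperones were those of Hyou1, an Hsp110-like partner of BiP, and Dnajb9, a J-domain cochaperone (ERdj4). Hyou1 was at 9.63, 9.50, 9.94 and 9.43 in KO and 9.80, 9.22, 9.72 and 9.29 in WT at P15, against 10.18, 10.26, 9.89 and 10.09 in KO and 9.63, 10.58, 9.91 and 9.41 in WT at P0. It was 1.35-fold lower at P15 (-0.43 ± 0.11, adjusted p = 0.00128), although the stages overlap in both genotypes. Within WT its difference of -0.38 ± 0.15 was -0.15 (adjusted p = 0.343) without WT P0 replicate 2, its highest array. Dnajb9 was at 10.70, 10.44, 10.50 and 10.27 in KO and 10.24, 10.56, 10.24 and 10.47 in WT at P15, against 10.99, 10.65, 10.96 and 10.81 in KO and 10.80, 10.41, 10.88 and 10.90 in WT at P0. It was 1.30-fold lower (-0.37 ± 0.10, adjusted p = 0.00258), with some overlap of the stages in both genotypes. Pdia4, a disulfide isomerase, fell by 0.25 on its chosen probe set, while its other, much dimmer probe set rose by 0.82. Ero1a, the oxidase that recharges disulfide isomerases, rose by 0.30 ± 0.04 with no overlap between stages in either genotype. The call of Hsp90b1, the ER member of the Hsp90 family, was lost with another scaling (adjusted p up to 0.222) and without WT P0 replicate 2 or WT P15 replicate 4. That of Manf was lost with covariates or without the arrays in doubt (adjusted p up to 0.189) and in 4 of 16 fits without 1 array, and Pdia4 and Pdia6 lost theirs under quantile normalisation and P4hb without the arrays in doubt.

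The folding genes whose P15 levels were near those at P0 include the lectin chaperones that bind glycoproteins: Calr differed by -0.01 and Canx by -0.07. Sdf2l1 and Creld2, both induced by ER stress in other settings, differed by 0.09 ± 0.16 and -0.02 ± 0.13, with the widest errors of the group. Before P15, the falls against P0 were shared by several stages for some folding genes. Dnajc3 (P58IPK), a cochaperone that holds PERK in check, was lower at P3 (-0.19 ± 0.07), P7 (-0.27 ± 0.06) and P10 (-0.24 ± 0.07). Pdia6, a disulfide isomerase that had also fallen at P15 (-0.23), was lower at P3 (-0.30 ± 0.08) and P10 (-0.39 ± 0.08). Sdf2l1 was lower at P7 alone (-0.42 ± 0.15).

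The translocon and signal peptidase genes had more rises at P15 than falls, and more of them were called in WT than in KO. Within KO 3 of the 9 measured had risen against P0 (Sec11c, Ssr4 and Ssr2) and none had fallen, with a median difference of 0.14. Within WT 7 had risen and none had fallen, with a median of 0.56. Of all genes 19.5% rose in KO and 21.6% in WT. The mean score of the list was -0.02 in KO and -0.24 in WT at P0, and 0.35 in KO and 0.41 in WT at P15. The difference between the genotypes' changes passed the test given below for 3 of the 9. As the mean of both genotypes 7 had risen, with a median difference of 0.39, where 25.4% of all genes rose. The 7 were Sec11c (1.45 ± 0.08), Ssr4 (0.98 ± 0.06), Ssr2 (0.66 ± 0.06), Sec61a1 (0.44 ± 0.05), Spcs2 (0.39 ± 0.06), Ssr1 (0.21 ± 0.06) and Ssr3 (0.19 ± 0.05). Of these Sec61a1, Ssr1 and Ssr3 were near or below 0 in KO (0.09, -0.08 and -0.13), and the call of Ssr1 was lost without the arrays in doubt (adjusted p = 0.0514). The other 2 were Sec61b (0.26 ± 0.14, adjusted p = 0.113) and Spcs1 (-0.01 ± 0.05). The 2 other probe sets of Sec61b did pass the test, with 0.42 (limma, adjusted p = 0.0277) and 0.29 (adjusted p = 0.0173). Their means were 6.55 and 8.328, against 8.329 for the chosen probe set. At P15 against P10 they rose by 0.64 and 0.58 (adjusted p = 0.00336 and 8.91e-05). Of all genes 23.7% rose at P15 against P10. At P15 against P10, 8 of the 9 rose, all but Spcs1; the call of Sec61b (0.38 ± 0.15) was lost in 7 fits without 1 array and without the arrays in doubt (adjusted p up to 0.265), and that of Ssr3 without the arrays in doubt (adjusted p = 0.113). Spcs1, a small signal peptidase subunit, instead rose at P3 (0.24 ± 0.05) and fell from P3 to P7 (-0.39 ± 0.05).

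Sec11c, a catalytic subunit of the signal peptidase, had the largest change of all 38 genes. It was at 10.17, 9.95, 10.21 and 10.01 in KO and 9.58, 9.83, 9.73 and 9.75 in WT at P15, against 8.51, 8.41, 8.66 and 8.74 in KO and 8.25, 8.44, 8.45 and 8.20 in WT at P0. The lowest P15 array lay well above the highest P0 array, and the mean was 2.73-fold higher (adjusted p = 9.94e-16). Its rise was under way before P15: it stood above P0 by 0.36 ± 0.08 at P3, was lower at P7 than at P3 by 0.22 ± 0.08, and stood above P0 by 0.62 ± 0.08 at P10. Ssr4, a subunit of the translocon-associated protein complex, was at 11.32, 11.36, 11.42 and 11.47 in KO and 11.15, 11.19, 11.05 and 11.24 in WT at P15, against 10.39, 10.31, 10.46 and 10.46 in KO and 10.00, 10.26, 10.26 and 10.20 in WT at P0. The stages did not overlap in either genotype, the mean was 1.98-fold higher at P15, and Ssr4 stood above P0 at the 4 pregnancy stages in turn by 0.27, 0.18, 0.37 and 0.98. All 4 differences passed the test, but the call at P7 was lost with centred arrays (adjusted p = 0.0794), in 5 fits without 1 array and when the arrays in doubt were left out (adjusted p = 0.127).

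Among the coat and KDEL receptor genes, 3 of 5 had risen at P15 against P0 and 1 had fallen, with a median difference of 0.18. Of all genes 25.4% rose and 31.0% fell. Sec23b, a subunit of the inner COPII coat, was at 10.61, 10.71, 10.95 and 10.63 in KO and 11.18, 11.17, 10.93 and 10.91 in WT at P15, against 10.36, 10.10, 10.05 and 10.30 in KO and 9.82, 10.31, 9.99 and 9.73 in WT at P0. It was 1.75-fold higher at P15 (0.81 ± 0.07, adjusted p = 1.03e-10), with no overlap between stages within a genotype. Sec24d, the cargo adaptor of COPII, rose by 0.38 ± 0.10, and Copb1, a COPI subunit, by 0.18 ± 0.05. Copg1, another COPI subunit, differed by -0.05 ± 0.05 at P15 and had fallen at P3 (-0.24 ± 0.06), P7 (-0.31 ± 0.05) and P10 (-0.18 ± 0.06), the last call being lost without the arrays in doubt (adjusted p = 0.0649).

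Kdelr3, a receptor that retrieves KDEL-tagged ER residents, was the gene of the coat group that fell. It was at 8.22, 8.43, 8.47 and 8.01 in KO and 8.86, 8.99, 8.72 and 8.63 in WT at P15, against 9.91, 9.21, 9.16 and 9.17 in KO and 8.82, 8.70, 8.75 and 8.41 in WT at P0. All KO P15 arrays lay below all KO P0 arrays, whereas the WT values overlap. The mean of both genotypes fell by 0.48 ± 0.15 (adjusted p = 0.00598), with -1.08 ± 0.21 in KO and 0.13 ± 0.21 in WT. Against P10, Kdelr3 was lower at P15 by 0.73 ± 0.16.

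The stress response and degradation genes had calls in both directions, at shares near those of all genes. Of the 8, Creb3l1 and Atf4 had risen at P15 against P0 and Herpud1, Ern1 and Ddit3 had fallen. Of all genes 25.4% rose and 31.0% fell. The median difference was -0.15 for the 8 and -0.03 for all genes. Creb3l1 (OASIS), a membrane-bound transcription factor of the ATF6 family, was at 10.35, 10.23, 10.19 and 10.35 in KO and 10.03, 10.18, 10.12 and 10.03 in WT at P15, against 9.68, 9.58, 9.37 and 9.39 in KO and 8.91, 10.02, 8.83 and 8.86 in WT at P0. WT P0 replicate 2 (10.02) stood apart from the other WT P0 arrays, near the P15 values. Creb3l1 was 1.81-fold higher at P15 (0.86 ± 0.12, adjusted p = 2.5e-07), and most of the difference was also seen against P10 (0.72 ± 0.13).

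Herpud1, an ER membrane protein of the degradation machinery that is induced by ER stress, was at 9.71, 9.71, 9.76 and 9.64 in KO and 9.75, 9.71, 9.74 and 9.66 in WT at P15, against 10.34, 10.33, 10.64 and 10.42 in KO and 10.87, 10.16, 10.66 and 10.28 in WT at P0. All 8 P15 arrays lay below all 8 P0 arrays and close together, from 9.64 to 9.76 (1.68-fold lower, -0.75 ± 0.08, adjusted p = 3.96e-09). Ern1, which encodes the sensor IRE1 alpha, fell by 0.67 ± 0.10 already at P3 and stayed lower at P7 (-0.81 ± 0.09), P10 (-0.84 ± 0.10) and P15 (-0.72 ± 0.09). Outside P0 its values in all arrays lay between 8.59 and 9.11, against 8.78 to 10.16 at P0. Over the alternative settings, single arrays left out aside, Ern1 differed at P15 by -1.03 to -0.94 in KO and -0.59 to -0.36 in WT. The WT call was lost with the 2 groups alone. Atf6, another sensor, had fallen at P3 (-0.25 ± 0.05), P7 (-0.27 ± 0.05) and P10 (-0.24 ± 0.05) and differed by -0.04 ± 0.05 at P15. Edem1, a lectin of the degradation route, was lower at P3 (-0.32 ± 0.08) and P7 (-0.40 ± 0.07), differed at P10 against P7 by 0.34 ± 0.08, a call lost with covariates (adjusted p = 0.0722) and when the arrays in doubt were left out (adjusted p = 0.155), and differed by -0.15 at P15 against P0 (adjusted p = 0.0846). Atf4 rose by 0.48 ± 0.06 at P15 as the mean of both genotypes. Over the alternative settings, single arrays left out aside, it differed by 0.67 to 0.81 in KO and 0.20 to 0.28 in WT. The WT call was lost with covariates, without the arrays in doubt and with the 2 groups alone (adjusted p up to 0.137). Ddit3 fell by 0.20 ± 0.08 as the mean of both genotypes, with 0.13 ± 0.11 in KO and -0.53 ± 0.11 in WT. That mean call was lost when any of 9 of the 16 arrays was left out in turn (adjusted p up to 0.101) and under quantile normalisation or centring (adjusted p up to 0.182).

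**Figure D2:**
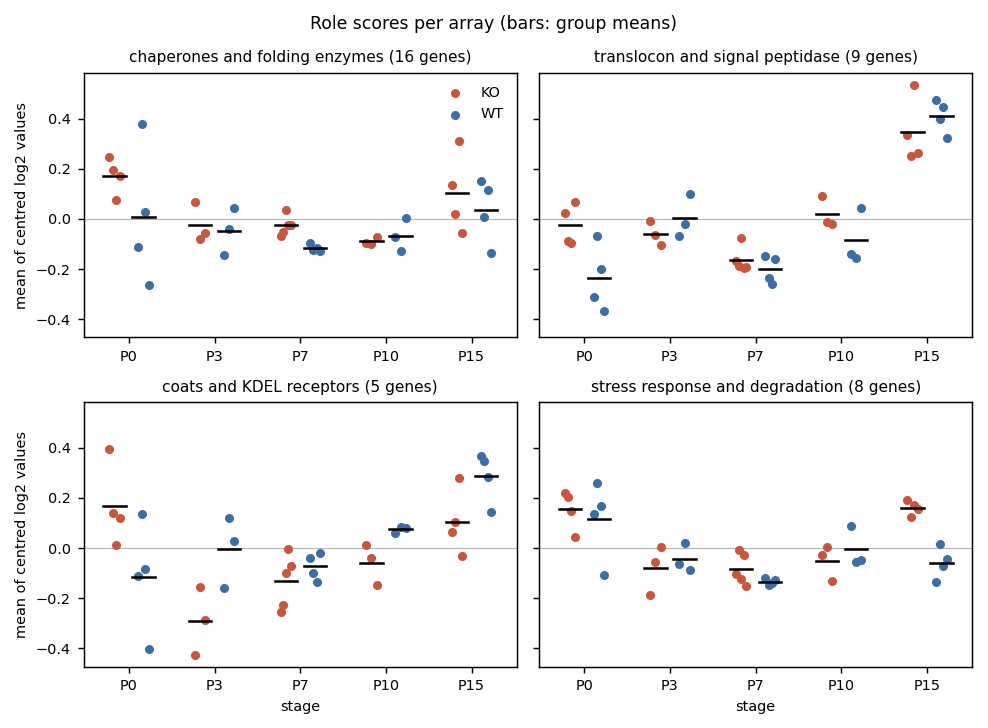
Score of each role on each array (y axis, log2 units) by stage (x axis); points are arrays (KO left of WT) and bars are group means. The translocon score is 0.25 to 0.53 in KO P15 and 0.32 to 0.47 in WT P15 arrays, above the P0 arrays of both genotypes (-0.09 to 0.07 in KO, -0.37 to -0.07 in WT), while the chaperone scores at P15 and P0 overlap.

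Other cell and tissue markers moved with stage, where 25.4% of all genes rose and 31.0% fell at P15 against P0. All 11 measured secretory milk protein genes had risen at P15 against P0, and their score was 1.91 to 2.18 in KO and 1.78 to 2.05 in WT at P15, against -1.66 to -0.02 in KO and -2.19 to -0.26 in WT at P0. Of 15 pan-epithelial markers 8 had risen and 3 had fallen, with scores of 0.32 to 0.40 in KO and 0.21 to 0.45 in WT at P15, against -0.27 to 0.41 in KO and -0.94 to 0.47 in WT at P0. Of 10 plasma cell markers, a secretory cell whose list shares Xbp1 and Derl3 with the wider ER genes below, 2 had risen and 3 had fallen, with scores of -0.29 to 0.15 in KO and -0.24 to 0.01 in WT at P15, against -0.05 to 0.47 in KO and -0.42 to 0.16 in WT at P0. All 11 white adipocyte markers and all 13 fibroblast and matrix markers had fallen, as had 10 of 12 macrophage markers. The part of these shifts in the ER gene differences was not tested.

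Other genes of the same pathway, 103 of 108 listed ones tested, were counted in the same way, and at P15 against P0 52 had risen and 22 had fallen (median 0.14). Of all genes 25.4% rose and 31.0% fell (median -0.03). The share that rose was 50.5% of the 103, with 39.1% of the chaperone list and 36.7% of the degradation and stress response list below. Of 22 other targeting, translocation, signal peptidase and glycosylation genes 16 had risen and 2 had fallen (median 0.22), among them Ostc of the oligosaccharyltransferase (0.55 ± 0.09), the signal recognition particle protein Srp19 (0.48 ± 0.06), the signal peptidase subunit Sec11a (0.48 ± 0.06) and Tram1 of the translocon (0.38 ± 0.05). Of 28 other coat, cargo and retrieval genes 16 had risen and 5 had fallen (median 0.16), with Sec13 (0.60 ± 0.06), Surf4 (0.47 ± 0.05) and Sec24a (0.43 ± 0.05) up and Tmed3 down (-0.68 ± 0.12). Of 23 other chaperones and folding enzymes 9 had risen and 6 had fallen (median 0.08). These included the peptidyl-prolyl isomerases Fkbp11 (1.89 ± 0.12) and Fkbp14 (-0.71 ± 0.11), the sulfhydryl oxidase Qsox1 (0.76 ± 0.08) and the thioredoxin-domain protein Txndc11 (0.63 ± 0.06). Of 30 other degradation and stress response genes 11 had risen and 9 had fallen (median 0.02), and Bhlha15 (MIST1), a transcription factor of secretory cells, rose 5.27-fold (2.40 ± 0.18). The PERK gene Eif2ak3 (0.77 ± 0.07) and the degradation factors Derl3 (0.58 ± 0.11) and Edem2 (0.54 ± 0.07) also rose.

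The course from P0 to P15 differed between genotypes for a part of the genes. Within KO, 8 of the 38 rose and 7 fell at P15 against P0, where 19.5% of all genes rose and 21.8% fell. Within WT, 15 rose and 7 fell, against 21.6% and 27.3% of all genes. Of the 38, 7 rose in both genotypes, 4 fell in both, and Nupr1 rose in KO and fell in WT. Spcs2 (0.56 ± 0.09), Sec24d (0.53 ± 0.15) and Copb1 (0.27 ± 0.07) were among those called in WT but not in KO (0.21 ± 0.09, 0.23 ± 0.15 and 0.10 ± 0.07), and their genotype difference did not pass the test that follows. The difference between the genotypes' changes, the interaction, passed the test for 9 of the 38, where 10.1% of all genes passed. It was above 0 for Nupr1 (1.39 ± 0.20, adjusted p = 0.000183), Ddit3 (0.65 ± 0.16) and Atf4 (0.52 ± 0.12). It was below 0 for Kdelr3 (-1.21 ± 0.29), Sec61a1 (-0.69 ± 0.11, adjusted p = 0.000246), Ssr3 (-0.63 ± 0.10), Ern1 (-0.59 ± 0.18), Ssr1 (-0.58 ± 0.13) and Sec23b (-0.56 ± 0.15). Without WT P0 replicate 2 it passed for 14 genes, and the call of Ern1 was lost in 8 of 16 fits without 1 array (adjusted p up to 0.0869), with covariates (adjusted p = 0.062) and without the arrays in doubt, where it was -0.39 (adjusted p = 0.157). No chaperone or folding enzyme passed it. An F test for a change of the genotype difference across the 5 stages passed for 9 of the 38, against 18.0% of all genes, and without the 7 arrays in doubt it passed for 4.

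**Figure D3:**
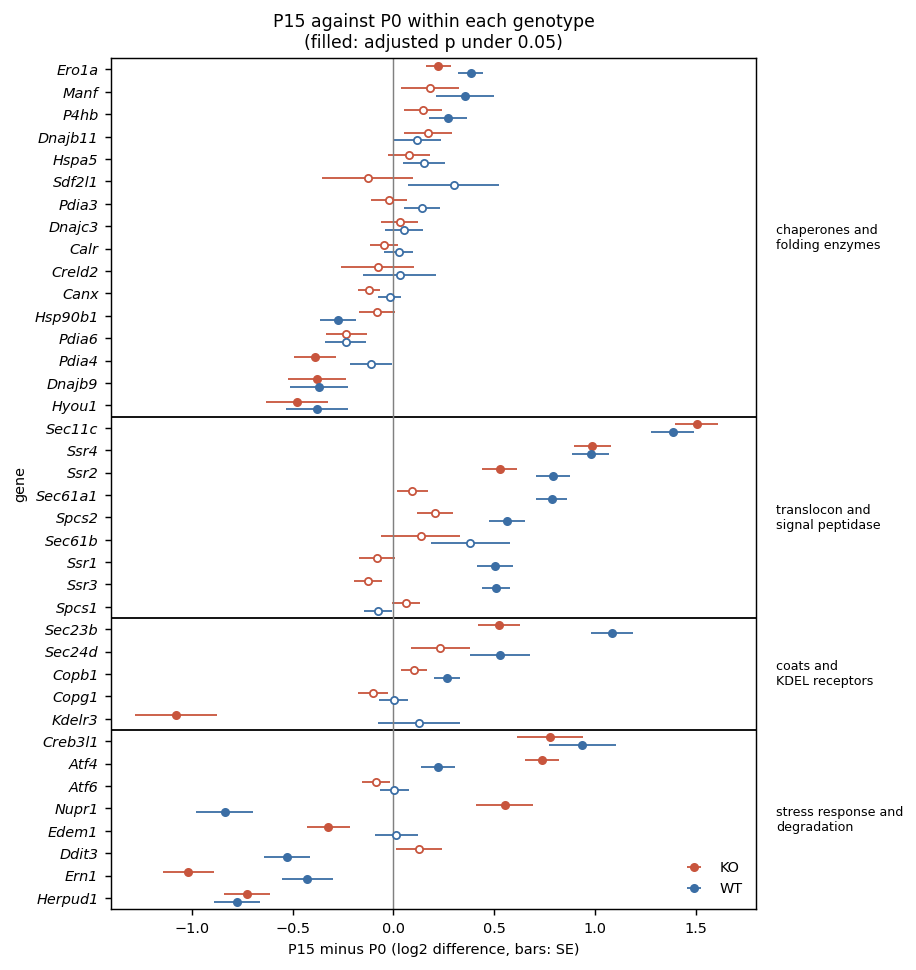
P15 minus P0 log2 difference with its standard error (x axis) for each of the 38 genes (rows, by role) in KO (upper point) and WT (lower point); filled points had an adjusted p under 0.05. Sec61a1, Ssr1 and Ssr3 lie near 0 in KO (0.09, -0.08 and -0.13) and between 0.50 and 0.79 in WT, Nupr1 lies on opposite sides (0.55 in KO, -0.84 in WT), and Sec11c, Ssr4, Creb3l1 and Herpud1 nearly coincide.

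Between genotypes at a given stage, P15 had the most calls, in both directions, while P0 had few calls but differences mostly above 0. At P0, 2 of the 38 were higher in KO, where 1.70% of all genes were called. Of the 38, 15 had an unadjusted p under 0.05, where 20.8% of all genes did. At P3 none was called by limma (0.119% of all genes), and 6 of the 38 had an unadjusted p under 0.05 (7.1% of all genes). At P7 none was called by limma (0.00593% of all genes), and 0 of the 38 had an unadjusted p under 0.05 (2.63% of all genes). At P10 Sec11c alone was called, where 17.2% of all genes were. At P15, 5 rose in KO and 4 fell, against 6.78% and 4.33% of all genes. Of the 38, 14 had an unadjusted p under 0.05, where 23.8% of all genes did. As the mean over stages Sec11c alone was called (0.27 ± 0.05), where 2.43% of all genes were, and the call was lost without the arrays in doubt (adjusted p = 0.096). The interaction above shares its arrays with the P0 and P15 comparisons, so the values are given side by side and not as independent results.

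At P15 the genes higher in KO were the stress response genes Nupr1, Ddit3 and Atf4 and the signal peptidase genes Sec11c and Spcs1. Nupr1, a small stress-induced transcription regulator, was at 10.06, 10.04, 9.85 and 10.27 in KO, against 8.63, 9.34, 8.86 and 9.02 in WT. The groups did not overlap, and Nupr1 was 2.13-fold higher in KO (1.09 ± 0.14, adjusted p = 1.99e-05), the smallest p of the 38 genes in a KO against WT comparison. At P0 it was at 9.42, 9.57, 9.59 and 9.44 in KO, against 9.88, 9.85, 9.68 and 9.78 in WT, with all KO arrays below all WT arrays, but the difference of -0.30 ± 0.14 did not pass the test (adjusted p = 0.231). Atf4, the transcription factor through which PERK acts, was at 8.14, 8.04, 8.40 and 8.20 in KO, against 7.79, 7.85, 7.95 and 7.67 in WT (0.38 ± 0.08, adjusted p = 0.00267), again without overlap. Ddit3 was at 7.53, 7.47, 7.61 and 7.50 in KO, against 6.91, 7.27, 6.85 and 7.35 in WT. It was 1.35-fold higher in KO (0.43 ± 0.11, adjusted p = 0.0125), with WT arrays spread over more than the KO arrays, and the call was lost without WT P15 replicate 1 or 3 (adjusted p up to 0.0669). Without the array labelled KO P15 replicate 3 the differences were 1.16 for Nupr1, 0.32 for Atf4 and 0.41 for Ddit3, all still called.

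The genes called lower in KO at P15 were Sec61a1, Ssr1, Ssr3 and Sec23b. Kdelr3, given above by array, had a larger difference of -0.51 without overlap, but did not pass the test. Ssr3 was at 10.94, 10.95, 11.22 and 10.91 in KO, against 11.47, 11.37, 11.43 and 11.34 in WT, and fell by 0.40 ± 0.07 (adjusted p = 0.000271). Sec61a1, the channel-forming subunit of the translocon, was at 11.90, 11.93, 12.13 and 11.82 in KO, against 12.44, 12.27, 12.33 and 12.26 in WT, and was 1.30-fold lower in KO (-0.38 ± 0.08, adjusted p = 0.00137). Ssr1 was at 11.06, 11.09, 11.44 and 10.98 in KO, against 11.76, 11.52, 11.54 and 11.46 in WT (-0.42 ± 0.09, adjusted p = 0.00201). In each of these 3 genes the groups did not overlap, and the highest KO array was the one labelled KO P15 replicate 3, whose Ptpn1 lay in the WT range. Without that array the differences were -0.47 for Ssr3, -0.44 for Sec61a1 and -0.52 for Ssr1. Sec23b was lower in KO by 0.32 ± 0.10 (adjusted p = 0.0387), with the array labelled KO P15 replicate 3 above 2 WT arrays and a difference of -0.40 without it, and the call was lost when any of 5 of the 8 arrays was left out (adjusted p up to 0.128).

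The called translocon and signal peptidase genes did not all have 1 direction between genotypes at P15. Sec11c, given above by array, was higher in KO by 0.37 ± 0.11 (adjusted p = 0.0241), and Spcs1 by 0.25 ± 0.07 (adjusted p = 0.0183), with 10.45, 10.30, 10.49 and 10.52 in KO, against 10.22, 10.18, 10.26 and 10.11 in WT. Without the array labelled KO P15 replicate 3 Sec11c differed by 0.32 (adjusted p = 0.0706), and centring the arrays on their medians ended both calls, with 3 genes higher and 6 lower in KO at P15 in place of 5 and 4. Nupr1, Atf4, Ssr1, Ssr3 and Sec61a1 kept their calls with each of the 8 arrays left out in turn and under all other settings tried. None of the 16 chaperones was called at P15, where 2 had an unadjusted p under 0.05 (23.8% of all genes) and differences ran from -0.14 to 0.23. The fibroblast and matrix markers differed at the same stage: 9 of 13 fell in KO, with scores of -0.93 to -0.61 in KO, against -0.36 to -0.15 in WT. Of 11 adipocyte markers 4 rose in KO, while no pan-epithelial marker of 15 and 1 milk gene of 11 were called. The part of these shifts in the genotype differences was not tested.

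**Figure D4:**
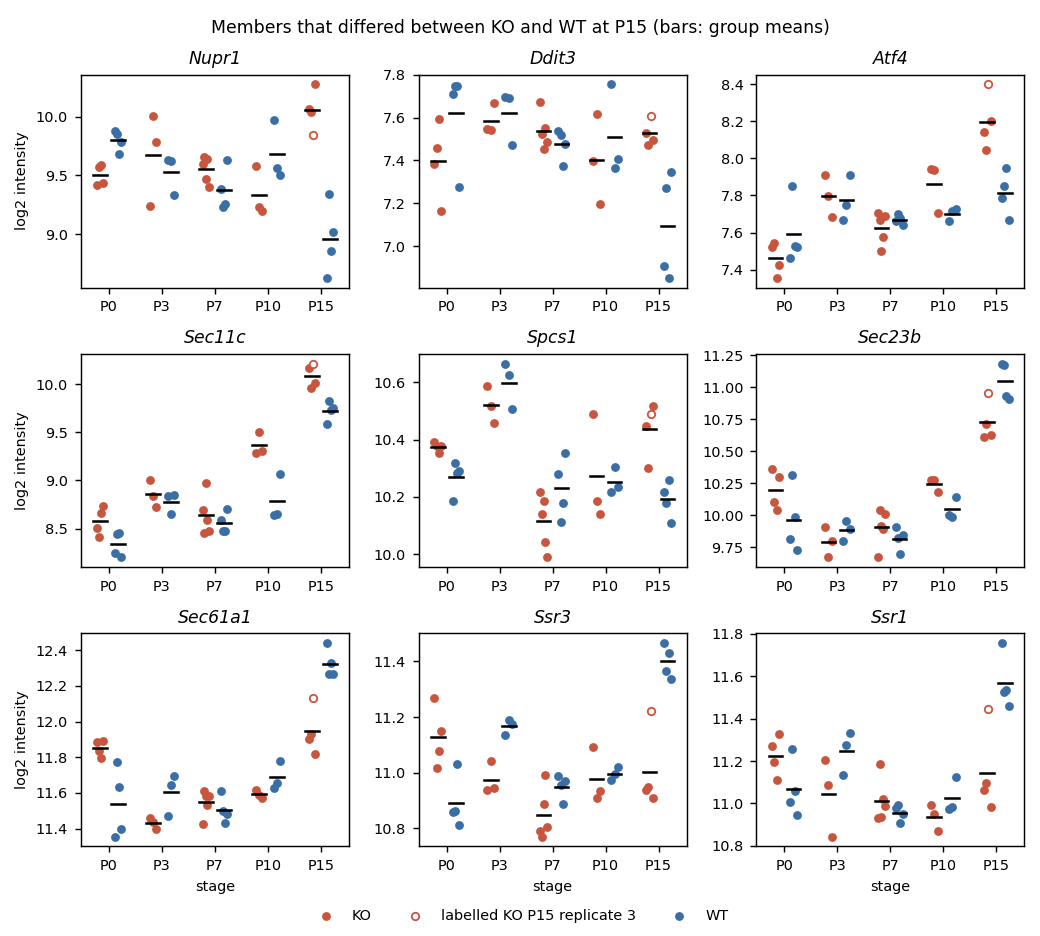
Log2 intensity on every array (y axis) by stage for the 9 genes called between KO and WT at P15; points are arrays (KO left of WT), bars are group means and the open point is the array labelled KO P15 replicate 3. Nupr1, Ddit3 and Atf4 are higher in KO at P15 and Sec61a1, Ssr3 and Ssr1 lower, without overlap, and at the other stages the genotypes mostly overlap.

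At P0 the 2 genes called were Ern1 and Sec61a1. Ern1 was at 9.92, 10.16, 9.85 and 9.51 in KO, against 9.11, 9.44, 9.78 and 8.78 in WT (0.58 ± 0.13, adjusted p = 0.0145), with overlap. Without WT P0 replicate 1 or 4 or KO P0 replicate 2 this call was lost (adjusted p up to 0.0834). Sec61a1 was at 11.88, 11.84, 11.80 and 11.89 in KO, against 11.35, 11.77, 11.63 and 11.40 in WT (0.31 ± 0.08, adjusted p = 0.0301), without overlap, and the call was lost in 5 of 8 fits without 1 array and with centred arrays. Kdelr3 was higher in KO by 0.69 ± 0.21, without overlap, but did not pass the test (adjusted p = 0.0716). The direction was wider than the calls: 34 of the 38 differences were above 0, with a median of 0.17 for the 38 genes and -0.01 for all genes. Leaving out WT P0 replicate 2, the WT P0 array with the highest ER gene values, gave 17 calls, and leaving out the arrays in doubt, among them WT P0 replicate 4, gave none. The pan-epithelial score at P0 was -0.27 to 0.41 in KO, against -0.94 to 0.47 in WT with the highest WT value in replicate 2. All 15 pan-epithelial differences were above 0 and none was called by limma. Of these, 12 had an unadjusted p under 0.05, where 20.8% of all genes did. All 12 macrophage markers also had differences above 0 at P0, with none called by limma, 9 with an unadjusted p under 0.05 and a median difference of 0.56, and their score was 0.29 to 0.96 in KO, against -0.52 to 0.52 in WT. The part of either list in the difference was not tested.

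At P10 Sec11c was at 9.29, 9.50 and 9.30 in KO, against 8.64, 8.65 and 9.07 in WT (0.58 ± 0.12, adjusted p = 0.00179). The groups did not overlap, but the call was lost with the lymphocyte and muscle scores as covariates, in a fit of these 2 groups alone and without the arrays in doubt, which left 1 KO array. In this stage all 14 B and T lymphocyte markers and 3 of 10 plasma cell markers were higher in KO, and the lymphocyte score was 3.90 and 3.83 in KO P10 replicates 2 and 3.

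Among the 103 other genes of the pathway, 8 rose and 8 fell in KO against WT at P15 (15.5% called), where 6.78% of all genes rose and 4.33% fell. At P10, 4 rose and 12 fell (15.5%, against 17.2% of all genes), and at P0 4 rose and none fell (3.88%, against 1.70% of all genes; Txndc5, Ppib, Tram1 and Tmed3). Direction was not shared by stages for some genes. Txndc5, a thioredoxin-domain protein, differed by 0.32 at P0 and -0.28 at P10, and Fkbp2 by -0.38 at P10 and 0.53 at P15. Tram1 differed by 0.27 at P0 and -0.25 at P15. The P10 values include KO P10 replicates 2 and 3, with their raised lymphocyte scores. The wider pathway genes were not refitted without these arrays or with covariates, so the part of lymphocytes was not tested. Of the 30 other degradation and stress response genes 2 rose and 1 fell at P15 (10% called), with 14 of 30 below 0. The risers were Cebpb (0.63 ± 0.12, adjusted p = 0.000608) and Trib3 (0.35 ± 0.09, adjusted p = 0.0111), a transcription factor that can pair with ATF4 and a pseudokinase that ATF4 can induce. Other ATF4 targets on the list, Chac1, Asns, Sesn2, Atf3, Atf5 and Ppp1r15a, were not called, with differences between -0.23 for Asns and 0.39 for Atf3. Of the signal recognition particle genes, Srp14 (0.53 ± 0.09), Srp19 (0.49 ± 0.08) and Srp68 (0.26 ± 0.08) were higher in KO, as was the isomerase Fkbp2 (0.53 ± 0.09). The oligosaccharyltransferase subunits Dad1 (-0.32 ± 0.06) and Stt3a (-0.23 ± 0.07), the translocon protein Tram1 (-0.25 ± 0.07) and the coat subunit Sec24a (-0.30 ± 0.07) were lower.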

How the data were processed

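The deposited table, made by the authors, gives log2 intensities of 34760 probe sets on 37 arrays. The affy package is named, per the submitters' processing notes; the sources used here give no background correction, summarisation or normalisation. Sense-strand cDNA was labelled, per the labels' protocols. Probe sets with 1 symbol (21640) were used; 1321 had several and 11799 none. Testing required a value over 4.96, the 25th percentile of all values, in 3 or more arrays. limma 3.58.1 under R 4.3.3 fitted a mean for every group over all arrays, with two-sided moderated tests and Benjamini-Hochberg adjustment over 16865 genes (threshold 0.05). The code was tested on simulated data. The number of arrays limits the precision, and no batch or date is given.

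The members, lists, tests and the rule for naming genes were chosen with earlier results of these data known. Every array is given for the 2 called members per role with the largest P15 against P0 difference and up to 6 with the smallest p between genotypes; Atf4, Ddit3 and Spcs1 were added after their values were seen. Of the wider pathway genes, up to 4 per list were named by P15 against P0 difference, and those named between genotypes were chosen after their values were seen. Scores are means of log2 values centred on each gene and carry no test. Alternatives were no filter, all annotated probe sets, other probe sets of a gene, quantile normalisation, centring on array medians, a trended and robust prior, array weights, lymphocyte and muscle scores as covariates, a replicate block, the 2 groups alone, and leaving out each array or the 7 in doubt (Ptpn1 on the other genotype's side, or a muscle or lymphocyte score more than 1 over the arrays' median).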

Additional observations from a re-analysis of the deposited data

Results flagged for a closer look

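An array stood apart from the rest of its group in 6 of 102 sets of values examined, where chance alone gives about 1 in 20. In KO P7, Hyou1 was 9.77 in replicate 2 (next array 9.63) and Ern1 was 8.66 in replicate 4 (next array 8.80). In KO P15, Ssr3 was 11.22 in replicate 3 (next array 10.95), the array whose Ptpn1 lay in the WT range. In KO P0, Kdelr3 was 9.91 in replicate 1 (next array 9.21). In WT P0, Creb3l1 was 10.02 in replicate 2 (next array 8.91). The translocon and signal peptidase score was -0.08 in KO P7 replicate 3 (next array -0.17), an array with raised muscle markers.

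The change from P0 to P15 differed between KO and WT, by the interaction test, by 1.39 for Nupr1, 0.65 for Ddit3, 0.52 for Atf4, -0.56 for Sec23b, -0.58 for Ssr1, -0.59 for Ern1, -0.63 for Ssr3, -0.69 for Sec61a1 and -1.21 for Kdelr3 (KO minus WT). Spcs1 passed the F test over the 5 stages (limma, adjusted p = 0.0398) without passing that interaction.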

How the results depend on the processing

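The array labelled KO P15 replicate 3, the few arrays per group and shifts in cell content limit these results. Counts of members called kept within 1.5 times of the reported count, except as follows. With array weights the counts were 12 at P7 against P3, 9 at P10 against P7, 7 between genotypes at P0, 10 at P10, 9 as the mean over stages and 18 in the F test. Without the arrays in doubt they were 2 at P10 against P7, 0 between genotypes at P0, 0 at P10, 0 as the mean over stages and 4 in the F test. With the lymphocyte and muscle covariates they were 1 at P10 against P7, 1 between genotypes at P0 and 0 at P10. The 2 groups alone gave 14 for P15 against P0 in WT, 0 between genotypes at P0 and 0 at P10, and centring gave 1 at P0; the cause was not tested.

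Other scalings moved the split of rises and falls to 15 and 5 (P15 against P0, quantile normalisation), 2 and 9 (P7 against P0, quantile normalisation), 3 and 5 (P7 against P3, centred), 11 and 5 or 10 and 5 (P15 against P0 in KO, centred or quantile) and 15 and 4 (P15 against P0 in WT, quantile). The other probe set of Pdia4, with a mean of 5.79, went the other way from the chosen one: 0.23 at P3 (limma, adjusted p = 0.282), 0.24 at P10 (adjusted p = 0.192) and 0.82 at P15 (adjusted p = 1.02e-05) against P0, and 0.83 at P15 within KO (adjusted p = 0.00105).

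With each array left out in turn, counts ran over 13 to 20 (P3), 11 to 22 (P7, highest without WT P0 replicate 4), 12 to 17 (P10) and 22 to 24 (P15) against P0. They ran over 2 to 6 (P7 against P3, lowest without WT P3 replicate 1 or KO P3 replicate 2, and 3 without WT P7 replicate 2 or 3), 3 to 5 (P10 against P7), 20 to 24 (P15 against P10), 13 to 17 (P15 against P0 in KO) and 17 to 26 (in WT). Between genotypes they were 0 to 17 at P0 (17 without WT P0 replicate 2, 0 without WT P0 replicate 1 or 4 or KO P0 replicate 2, 1 without KO P0 replicate 3 or 4), 0 at P3 and P7, 1 to 3 at P10 (highest without KO P10 replicate 1) and 6 to 8 at P15. They were 1 to 3 as the mean over stages (3 without KO P10 replicate 1, 2 without WT P0 replicate 2 or 3, KO P0 replicate 4 or KO P15 replicate 3), 8 to 14 for the interaction and 6 to 14 for the F test (both highest without WT P0 replicate 2). The interaction of Ern1 lost its call in 8 of 16 such fits.

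Replicate numbers come from titles. The deviations of same-numbered KO and WT arrays from their group means correlated over 0.1 in 9 of 18 pairs (-0.52 to 0.38, median 0.10). Arrays with different numbers were not compared in this way, so these values cannot show whether the numbers pair the arrays. The main fit did not pair them. At P15 the correlations of replicates 1 to 4 were -0.14, 0.27, 0.32 and 0.38. The replicate block fits 1 effect per replicate number across all stages and genotypes, so it does not model pairs within a stage. With this block 24 members were called for P15 against P0, 8 for KO against WT at P15, where Sec23b was not called, and 9 for the interaction.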
